A study of Mus musculus with 4 samples.

Results

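The BCL2 family sets whether mitochondria release the factors that start apoptosis. Here it was followed through 10 genes, picked out by their symbols, of the 24087 genes measured by RNA-seq in splenic Treg cells of mice with a Treg-directed deletion of Setd2 (KO) and of littermate controls (CTRL). The 3 pro-survival members (Bcl2, Bcl2l1 and Mcl1) hold the pathway in check, the 2 effectors (Bax and Bak1) form pores in the outer mitochondrial membrane, and the 5 BH3-only members (Bcl2l11, Bbc3, Pmaip1, Bid and Bad) relay death signals by binding the others. All 10 were expressed. In KO cells Bcl2 was lower, at 0.577 times its CTRL level, and Bak1 was higher, at 1.525 times, and these were the members that passed the test over all genes. Mcl1, the most abundant member, was at nearly the same level in both genotypes.

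Cells were sorted as CD3+CD4+YFP+ from spleens of C57BL/6 mice at steady state. KO mice were Foxp3Cre-YFPSetd2f/f, and CTRL mice were littermates with the genotype Foxp3Cre-YFPSetd2f/+, which also carried Cre and 1 floxed Setd2 allele. The comparison is therefore with cells that can lose 1 Setd2 allele, not with cells in which both are intact. Cre and YFP are made under Foxp3, so deletion is directed to cells that express Foxp3. The study's methods give an age of 6 to 12 weeks for its mice in general. Each genotype had 2 libraries, and each library was a pool of cells from 2 mice, so n is 2 pools throughout. Values are FPKM, the fragments of a gene relative to its length and the library's total, so levels of different genes within a library can be set side by side.

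In lymphocytes the pro-survival proteins bind BH3-only proteins and activated effectors in a groove on their surface, and a cell survives while that binding capacity exceeds the load of death-promoting members. T cells are known to depend on Bcl2 and Mcl1 for survival, and Bcl2l11 (Bim) is known for the removal of lymphocytes after cytokine withdrawal. Members of every class share a BH3 segment, the stretch through which one member is held by another. Its coding stretch is printed here for the pro-survival and effector members that head the results and for Bcl2l11, the BH3-only protein best known in lymphocytes. Capitals mark the core, which runs from a leucine codon over any 2 codons, a codon for a hydrophobic residue and a codon for a small residue to an aspartate codon.
Bcl2: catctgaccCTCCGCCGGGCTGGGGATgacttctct
Mcl1: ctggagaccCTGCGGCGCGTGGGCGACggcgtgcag
Bax: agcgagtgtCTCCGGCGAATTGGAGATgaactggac
Bak1: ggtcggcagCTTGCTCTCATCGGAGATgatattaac
Bcl2l11: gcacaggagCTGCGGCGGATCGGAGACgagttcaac
These stretches lie in coding exons at chr1:106712575-106712610 (minus strand), chr3:95659427-95659462 (plus), chr7:45465997-45466032 (minus), chr17:27022531-27022566 (minus) and chr2:128147141-128147176 (plus) of GRCm38, in the GENCODE vM21 transcripts. The core starts at codon 94 of Bcl2, 194 of Mcl1, 63 of Bax, 76 of Bak1 and 150 of Bcl2l11. Each of these coding sequences held the pattern 1 time.

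Depth was similar between libraries, with at least 29988267 reads in the shallowest and 32686764 in the deepest. Reads behind single members ran from 437 or more for Bad in CTRL 1 to 21461 or more for Mcl1 in CTRL 2. Setd2 itself was at 23.4 and 25.3 FPKM in CTRL, against 21.3 and 19.5 in KO, with an adjusted p of 0.0970 in limma. FPKM is summed over a whole gene, and exons outside the floxed part still count. Whether this bears on the Setd2 values was not tested. By flow cytometry, the study reported that Setd2 protein was abrogated in splenic Treg cells of KO mice. The sorted cells carried their defining markers, with Foxp3 between 111.6 and 139.8 FPKM and Cd4 between 268 and 298.6, and of the CD8 T cell markers Cd8a was at no more than 0.326 and Cd8b1 between 8.33 and 11.2. Marker genes of myeloid cells summed to 175.2 and 104.6 FPKM in CTRL 1 and CTRL 2 and to 240.9 and 85.9 in KO 1 and KO 2. These were 8 of 8 markers above 1 FPKM in at least 1 library. B cell markers summed to between 21.8 and 40.96 FPKM (6 of 6) and erythroid markers to between 4.16 and 38.5 (3 of 5 listed), and both sums were highest in KO 1. Hbb-bs was listed at 0 in every library but KO 1 and S100a8 at 0 in CTRL 2. Their part in the results was not tested.

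All 10 members passed the filter on low values (FPKM of 1 or more in 2 or more libraries), as did 11399 genes in all. On log2(FPKM + 1), limma with Benjamini-Hochberg adjustment over all genes called 1 member higher and 1 lower in KO at an adjusted p under 0.05. Over all genes tested, 5.1% were called higher and 4.65% lower, 9.75% together. The median difference over the members was 0.15 on the log2 scale, with a range from -0.77 to 0.60, compared with a median of -0.02 over all genes. In 8 of the 10 members both KO libraries lay on one side of both CTRL libraries, compared with 64.5% of all genes. In these bulk libraries fewer cells of a type and less RNA per cell cannot be told apart.

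**Figure D1:**
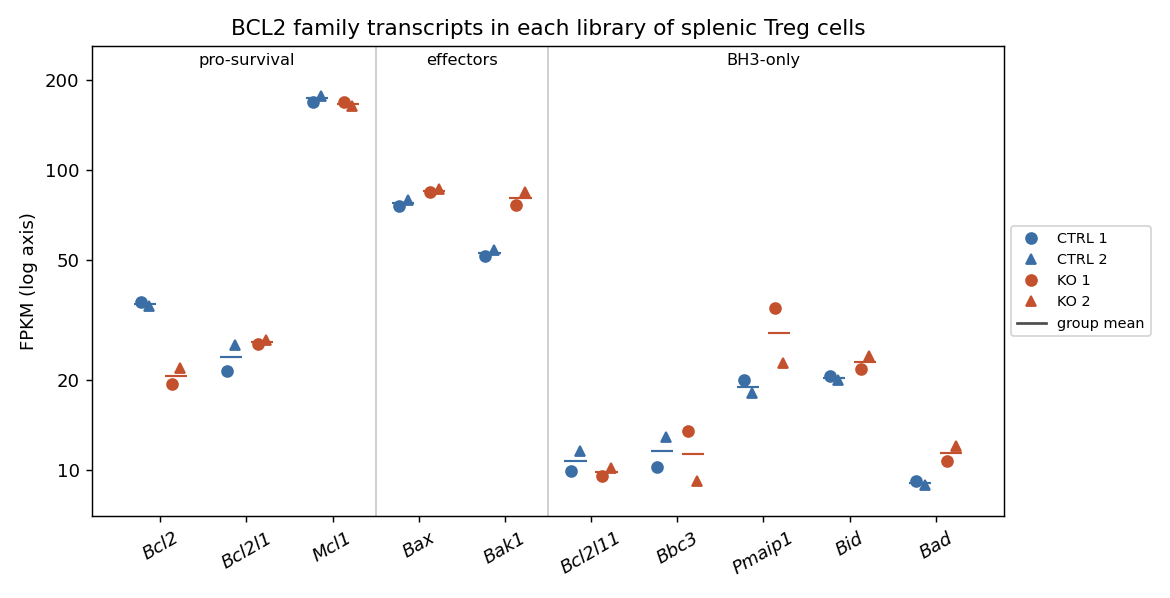
FPKM (log axis) of the 10 members in each library, with circles for replicate 1, triangles for replicate 2 and bars for group means, ordered by class. Bcl2 falls from 36.2 and 35.3 in CTRL to 19.4 and 21.9 in KO, Bak1 rises from 51.9 and 54.0 to 76.7 and 84.8, and Mcl1 stays at the top of the range in both genotypes.

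Among the pro-survival members, Bcl2, the founding member of the family, was the one that passed the test. Its FPKM was 36.2 (CTRL 1), 35.3 (CTRL 2), 19.4 (KO 1) and 21.9 (KO 2). The groups were far apart relative to the spread within them, with means of 35.8 ± 0.634 (SD, n = 2) in CTRL and 20.6 ± 1.74 (SD, n = 2) in KO. The log2 difference was -0.77 (standard error 0.076, 95% interval -0.96 to -0.57) and the adjusted p in limma was 0.0306. At least 9211 and 9485 reads lay behind the CTRL values and 5310 and 6010 behind the KO values. The direction was the same with each library left out. Its adjusted p then missed the threshold each time, at 0.122 when CTRL 1 was dropped, 0.140 when CTRL 2 was, 0.102 when KO 1 was and 0.0888 when KO 2 was. The gene (ENSMUSG00000057329) lies on the minus strand at chr1:106538178-106714274 of GRCm38. An antisense gene, D630008O14Rik, overlaps its exons, and whether counting used strand is not given in the sources used here.

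Bcl2l1, which encodes Bcl-xL, was at 21.5 and 26.2 FPKM in CTRL, compared with 26.4 and 27.1 in KO. The groups were narrowly separate, by less than the gap between the CTRL libraries. The log2 difference was 0.17 (standard error 0.104, 95% interval -0.10 to 0.43), with an adjusted p of 0.311. It was 0.03 without CTRL 1 and 0.31 without CTRL 2. Mcl1, a short-lived pro-survival protein whose transcript was the most abundant of the family, was at 169.5 and 177.6 FPKM in CTRL, against 169.1 and 163.7 in KO. The KO libraries were the lower ones, by 0.06 on the log2 scale (95% interval -0.20 to 0.08, adjusted p 0.490). The intervals of Bcl2 and Mcl1 do not overlap. With means of 173.6 ± 5.77 and 166.4 ± 3.81 FPKM (SD, n = 2), Mcl1 was above the sum of Bcl2 and Bcl2l1 in every library. Copies of the pro-survival gene A1 are not among the members and were left out of that sum.

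**Figure D2:**
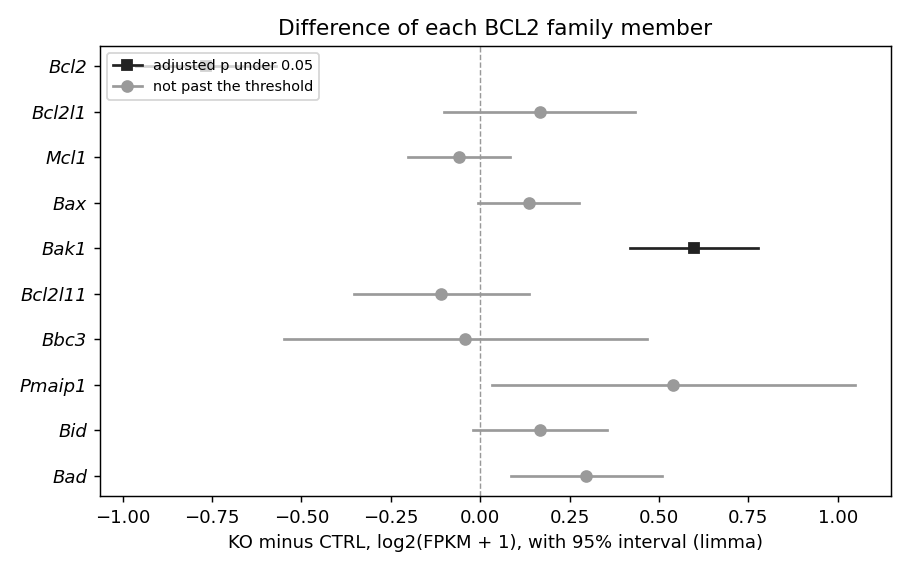
KO minus CTRL difference in log2(FPKM + 1) of each member with its 95% interval from limma. Black squares mark an adjusted p under 0.05, reached by Bcl2 at -0.77 and Bak1 at 0.60, and grey circles the other 8 members.

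The promoter of Bcl2 is shown because this member carried the largest difference of the family. The stretch covers the 250 bases before the RefSeq start, at chr1:106714291-106714540 on the minus strand (GRCm38.p6), and is written in the direction of transcription. Capitals mark matches, on either strand, to GGGCGG (the core of an SP1 site, 7 matches) and TGACGT (part of a cAMP response element, 1 match), none of which overlap.
Bcl2 promoter: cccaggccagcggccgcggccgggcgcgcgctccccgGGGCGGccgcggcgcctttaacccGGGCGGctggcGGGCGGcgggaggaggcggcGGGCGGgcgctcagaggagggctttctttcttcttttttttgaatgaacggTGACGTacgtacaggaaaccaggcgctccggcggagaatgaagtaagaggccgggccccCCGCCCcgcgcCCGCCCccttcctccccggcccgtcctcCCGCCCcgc
GC content was 74.8%, compared with a median of 52.4% over the same 250 bases before the start in 32851 promoters. GGGCGG was present in 32.7% of those windows and TGACGT in 6.47%. The E-box CACGTG (6.02% of promoters) and the STAT pattern TTCNNNGAA (7.02%) had no match in this window. The corresponding window of Bak1, at chr17:27028628-27028877 (minus strand), had a GC content of 58.4% and no match to any of the 4 patterns. It overlaps an exon of Bak1 in GENCODE, where the gene starts further upstream, whereas the Bcl2 window overlaps no exon of Bcl2. These matches are letters only and were not tied to any factor.

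Of the effectors, Bak1, whose protein sits on the mitochondrial membrane, was higher in KO. Its values were 51.9 and 54.0 FPKM in CTRL and 76.7 and 84.8 in KO. The lower KO library lay well above the higher CTRL library, and the means were 52.95 ± 1.52 and 80.7 ± 5.71 FPKM (SD, n = 2). The log2 difference was 0.60 (standard error 0.070, 95% interval 0.42 to 0.78) and the adjusted p was 0.0346. With a library left out the difference ran from 0.53 to 0.67. The adjusted p was again above the threshold, at 0.1301 on dropping CTRL 1, 0.140 on dropping CTRL 2, 0.102 on dropping KO 1 and 0.0937 on dropping KO 2. Bak1 (ENSMUSG00000057789, chr17:27019810-27029009, minus strand) shares exon positions with Ggnbp1 on the other strand. Ggnbp1 was at 1.06 and 1.28 FPKM in CTRL and 0.572 and 0.838 in KO. Another Ggnbp1 entry whose exons also overlap Bak1 is not among the genes measured. Reads of these genes cannot be told apart if strand was not used, and their part in the Bak1 values was not tested.

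Bax, the effector that moves from the cytosol to mitochondria, was at 76.0 and 79.5 FPKM in CTRL, compared with 84.4 and 86.6 in KO. Both KO libraries were higher, by a small step of 0.14 on the log2 scale (standard error 0.055, 95% interval -0.01 to 0.28, adjusted p 0.156). Bax was the more abundant effector in every library. The distance between the pair narrowed, and Bak1 made up 40.6% and 40.5% of effector FPKM in CTRL and 47.6% and 49.5% in KO. Part of Bax (5.3% of its stretches of 100 bases) is shared with Gm45808, which overlaps it on the same strand.

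None of the BH3-only members passed the test over all genes. In 3 of the 5 both KO libraries lay on one side of both CTRL libraries, compared with 64.5% of all genes. At an unadjusted p under 0.05 in limma 2 of the 5 were higher and 0 lower. Of all 11399 genes tested, 1855 were higher and 2099 lower at that threshold. Limma-voom on reads recovered from the FPKM called 0 of the 5. Bcl2l11 was at 9.90 and 11.6 FPKM in CTRL, against 9.55 and 10.1 in KO. Its groups overlapped, with a log2 difference of -0.11 (standard error 0.096, 95% interval -0.35 to 0.14, adjusted p 0.463), and of -0.21 without CTRL 1 and -0.01 without CTRL 2. Bbc3, which encodes the p53 target Puma, was at 10.2 and 12.9 FPKM in CTRL, compared with 13.5 and 9.18 in KO. The KO libraries were its extremes, and the log2 difference was -0.04 with an interval from -0.55 to 0.47 (adjusted p 0.902).

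Pmaip1, which encodes Noxa, a protein that binds Mcl1 above all and is also a p53 target, was at 19.9 and 18.05 FPKM in CTRL, against 34.6 and 22.7 in KO. Both KO libraries were higher, and KO 1 stood far above the other KO library. Means were 18.98 ± 1.32 and 28.6 ± 8.42 FPKM (SD, n = 2), so that KO was at 1.508 times CTRL, and the log2 difference was 0.54 (standard error 0.198, 95% interval 0.03 to 1.05). The unadjusted p in limma was 0.0409 and the adjusted p 0.128. The difference was 0.25 without KO 1 and 0.83 without KO 2. KO 1 was also the library with the highest sums of myeloid, B cell and erythroid markers. In CTRL these sums were higher in CTRL 1 than in CTRL 2, with Pmaip1 at 19.9 and 18.05 FPKM. The part of such cells in the Pmaip1 values was not tested. Pmaip1 lies on chromosome 18.

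Bid, which joins death receptor signals to mitochondria once caspase 8 has cut it, was at 20.6 and 19.95 FPKM in CTRL, compared with 21.8 and 24.1 in KO. Its KO libraries were both higher, with a log2 difference of 0.17 (standard error 0.073, 95% interval -0.02 to 0.36, adjusted p 0.176). Bad, a BH3-only protein held inactive by phosphorylation when growth factors are present, was the least abundant member in CTRL. It was at 9.18 and 8.91 FPKM in CTRL, against 10.7 and 11.98 in KO. The groups did not overlap, and the log2 difference of 0.30 (standard error 0.082, 95% interval 0.09 to 0.51) had an unadjusted p of 0.0148 and an adjusted p of 0.0766 in limma. Exons of Bad overlap Gpr137 on the other strand, which was at 5.17 and 4.81 FPKM in CTRL, compared with 6.00 and 6.56 in KO. Reads of these genes cannot be told apart if strand was not used, and the same holds for Bid and Bcl2l13.

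The order of the members by level changed with genotype. In CTRL it ran Mcl1, Bax, Bak1, Bcl2, Bcl2l1, Bid, Pmaip1, Bbc3, Bcl2l11 and Bad. The lowest CTRL value of each gene lay above the highest of the next, except for Bbc3 and Bcl2l11. That pair kept its order within each CTRL library. Bid and Pmaip1 were only just apart, at 19.95 against 19.92 FPKM. In KO it ran Mcl1, Bax, Bak1, Pmaip1, Bcl2l1, Bid, Bcl2, Bad, Bbc3 and Bcl2l11. Bcl2 moved from place 4 to place 7, and from percentile 79.9 to percentile 65.3 of the genes tested. In KO the neighbours Bax and Bak1, Pmaip1 and Bcl2l1, Bid and Bcl2, Bad and Bbc3, and Bbc3 and Bcl2l11 overlapped between libraries. Mcl1 was at percentile 97.1 in CTRL and 96.6 in KO.

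Summed by class, the pro-survival members gave 227.2 and 239.2 FPKM in CTRL and 214.9 and 212.7 in KO. The effectors gave 127.9 and 133.5 FPKM in CTRL and 161.1 and 171.4 in KO, and the BH3-only members 69.8 and 71.4 in CTRL and 90.1 and 78.0 in KO. The sum of the 3 pro-survival members was lower in both KO libraries and the other sums were higher. FPKM of the 3 pro-survival members was 3.25 and 3.35 times that of the 5 BH3-only members in CTRL. In KO it was 2.38 and 2.73 times. These sums cover the members only. Copies of the pro-survival gene A1 are not in them, among them Bcl2a1b at 74.2 and 65.9 FPKM in CTRL and 71.6 and 72.05 in KO. The log2 ratio differed by -0.37 between genotypes, with a p of 0.333 in a two-sided exact permutation test over libraries, which is the smallest p that 2 libraries against 2 can give. Transcript sums say nothing of protein levels or of how strongly one member binds another.

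**Figure D3:**
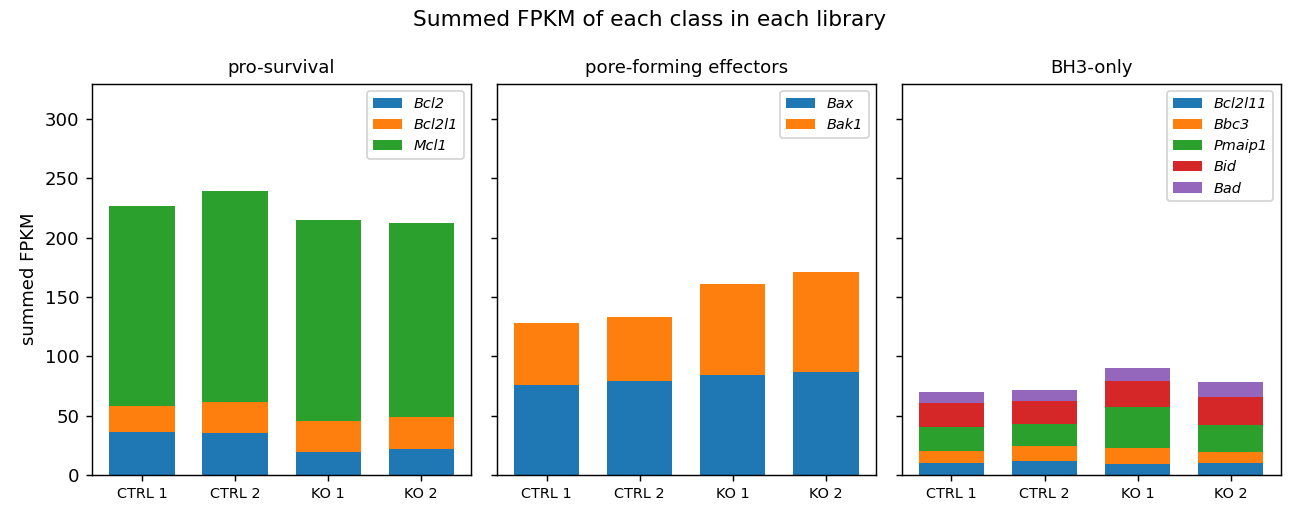
Summed FPKM of the members of each class in each library, without the A1 copies, stacked by member on a linear axis from 0. The pro-survival bars, mostly Mcl1, are at 227.2 and 239.2 in CTRL and 214.9 and 212.7 in KO, and the effector bars go from 127.9 and 133.5 to 161.1 and 171.4 as the Bak1 share grows.

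Some further ratios were formed after the values had been seen and carry no test. Shares were taken of the summed FPKM of the 3 pro-survival members, without the A1 copies. Bcl2 made up 15.95% and 14.8% of that sum in CTRL and 9.03% and 10.3% in KO. Mcl1 made up 74.6% and 74.3% of it in CTRL and 78.7% and 77.0% in KO. The Bcl2 to Bak1 ratio was 0.699 and 0.654 in CTRL and 0.253 and 0.258 in KO. With KO at 0.378 times CTRL, it had the largest fold change among the ratios formed. It pairs the 2 members called in opposite directions. Bcl2 to Bcl2l11 was 3.66 and 3.06 in CTRL and 2.03 and 2.16 in KO. Mcl1 to Bcl2l11 was 17.1 and 15.4 in CTRL and 17.7 and 16.2 in KO, with overlapping libraries. Bcl2 exceeded Bcl2l1 in CTRL, at 1.69 and 1.35 times its level, and was below it in KO, at 0.736 and 0.807 times.

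Genes around the family were read from 6 lists with 77 genes, of which 71 were tested. Of these, 5 rose and 5 fell (14.1% of those tested, compared with 9.75% of all genes, 5.1% higher and 4.65% lower), with a median difference of 0.03. With any 1 of the 4 libraries left out, 0 of the list genes were called in limma. Among the other BCL2 relatives 10 of 13 were tested and none was called, with a median of 0.03. At an unadjusted p under 0.05 in limma, 1 of them was higher and 0 lower, compared with 1855 and 2099 of all 11399 genes. Limma-voom on reads recovered from the FPKM called 0 of them in either direction. The most abundant of these was Bcl2a1b, a copy of the pro-survival gene A1, at 74.2 and 65.9 FPKM in CTRL, against 71.6 and 72.05 in KO. Its groups overlapped, and the sign of its small difference changed with the setting. The value is uncertain because 56.8% of its stretches of 100 bases are shared with other copies, among them Bcl2a1a and Bcl2a1d. Bcl2l10, Bok and Hrk did not pass the filter on low values.

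Downstream of the mitochondria, 1 of 16 genes of the apoptosome and caspase list fell, and 4.65% of all genes were called lower. Dffb, the nuclease that cuts DNA in dying cells once caspases free it, was at 7.50 and 8.15 FPKM in CTRL, against 5.23 and 5.04 in KO (log2 difference -0.52, adjusted p 0.0378). The most abundant gene of the list was Vdac2, a channel of the outer membrane that binds Bak1 protein, at 80.2 and 75.2 FPKM in CTRL, compared with 92.98 and 97.99 in KO. Its KO libraries were both higher, and its adjusted p of 0.0504 lay just outside the threshold, inside it under 6 of the other settings. Among the 5 inhibitor of apoptosis genes, Birc5 (survivin, which also acts in mitosis) rose from 11.6 and 8.19 FPKM to 18.7 and 18.6 (log2 difference 0.87, adjusted p 0.0408). Birc6, a very large ubiquitin ligase that restrains caspases, fell from 28.5 and 31.5 FPKM to 21.9 and 21.8 (log2 difference -0.44, adjusted p 0.0378). With the exon length trend removed the difference of Birc6 was -0.27 and its adjusted p in limma 0.0715. Without a variance trend in limma the adjusted p was 0.052 for Birc6 and 0.0540 for Birc5, and without a filter on low values 0.0861 and 0.0998. Birc3, the most abundant of them, was at 58.9 and 60.1 FPKM in CTRL, against 75.0 and 68.7 in KO, with an adjusted p of 0.0619.

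In the death receptor list, 1 of 12 genes rose and none fell (8.33% called, compared with 9.75% of all genes). The gene that rose was Ripk3, a kinase of necroptosis, from 33.3 and 34.4 FPKM to 47.0 and 45.4 (log2 difference 0.44, adjusted p 0.0346). At an unadjusted p under 0.05 in limma, 1 gene of this list was lower, compared with 2099 of all 11399 genes. Limma-voom called 0 of the list lower. Casp8, the caspase that cuts Bid and the most abundant gene of the list, was at 88.5 and 90.9 FPKM in CTRL, compared with 69.7 and 80.1 in KO, with a log2 difference of -0.26 and an adjusted p of 0.0944.

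Of the p53 list, 12 of 14 genes were tested, with 1 called higher and 1 lower (16.7%, compared with 9.75% of all genes). Perp, a membrane protein induced by p53, rose from 1.38 and 0.972 FPKM to 4.68 and 3.87 (log2 difference 1.28, standard error 0.149, adjusted p 0.0346). Mdm4, which restrains p53, fell from 54.7 and 53.5 FPKM to 38.1 and 38.9 (log2 difference -0.48, adjusted p 0.0329). Trp53, the gene of p53 itself and the most abundant of the list, was at 90.6 and 92.1 FPKM in CTRL, against 80.6 and 92.3 in KO, with overlapping groups. Cdkn1a, a cell cycle inhibitor and p53 target named here after its values were seen, was at 5.66 and 5.26 FPKM in CTRL, compared with 17.5 and 10.1 in KO. As with Pmaip1, its highest value was in KO 1, and its adjusted p in limma was 0.0509, which fell under 0.05 in 6 of the other settings. Trp73 and Eda2r did not pass the filter.

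Of 16 tested genes known to act on the members, 1 rose and 2 fell (18.75%, compared with 9.75% of all genes). E2f1, a cell cycle factor that can induce BH3-only genes, rose from 4.39 and 3.77 FPKM to 7.73 and 7.43 (log2 difference 0.76, adjusted p 0.0346). Myc, a growth factor-induced transcription factor, fell from 65.4 and 64.9 FPKM to 41.3 and 47.6 (log2 difference -0.54, adjusted p 0.0355). Huwe1, a ubiquitin ligase of the Mcl1 protein, fell from 54.8 and 57.8 FPKM to 45.2 and 46.5 (log2 difference -0.29, adjusted p 0.0458). The Huwe1 call was lost in limma with median-ratio scaling (adjusted p 0.0531), without a variance trend (0.0715), without a filter on low values (0.0906) and with each library's trend with exon length removed (0.197), where the difference was -0.13. Il2rb, a receptor chain for IL-2, the cytokine that sustains Treg cells, was the most abundant gene of the list, at 386 and 439 FPKM in CTRL, against 448.7 and 487.5 in KO (adjusted p 0.203). Trim17 did not pass the filter.

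**Figure D4:**
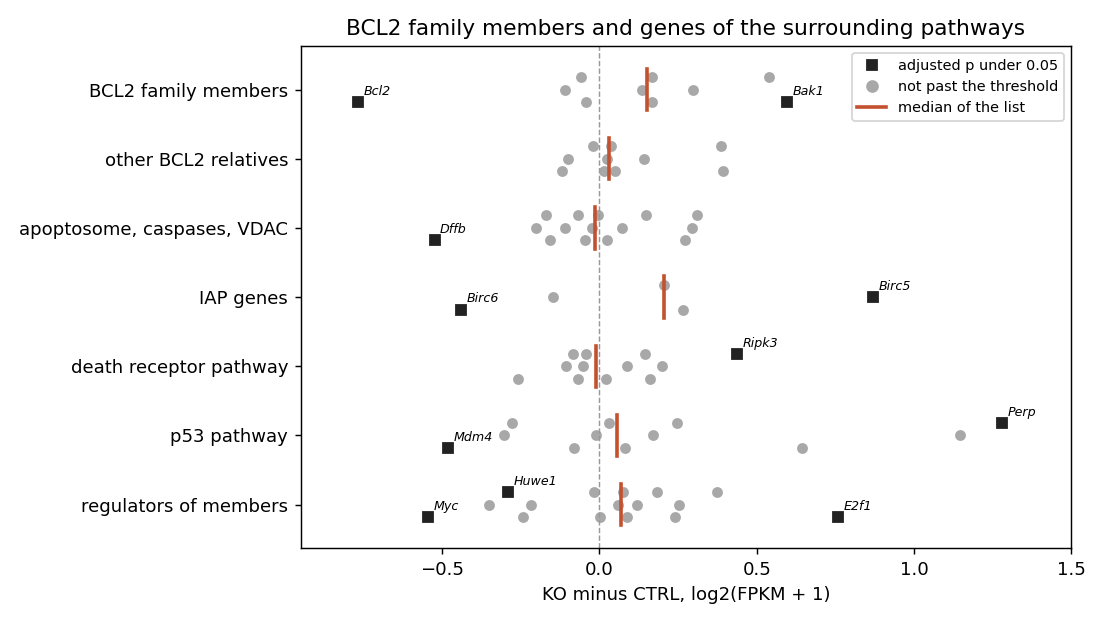
KO minus CTRL difference in log2(FPKM + 1) of the tested genes of the family and of the 6 surrounding lists, but for 1 gene not reported here, with the median of each list as a vertical bar and genes past an adjusted p of 0.05 as labelled black squares. The called genes shown lie on both sides of 0 in the family, the inhibitor of apoptosis genes, the p53 list and the regulators of members.

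Each member's difference was also computed under 11 other settings and with each library left out. Bcl2 stayed between -0.80 and -0.70 and Bak1 between 0.53 and 0.62 under the other settings. Without a filter on low values, which added genes near 0 to the test, the adjusted p was 0.0860 for both, and no gene of the whole table was then called by limma, with 2212 higher and 2251 lower at an unadjusted p under 0.05. Bbc3 changed sign, at 0.003 with quantile normalization and at 0.11 without CTRL 2 and 0.21 without KO 2. The other 9 members kept their direction under all of these settings.

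**Figure D5:**
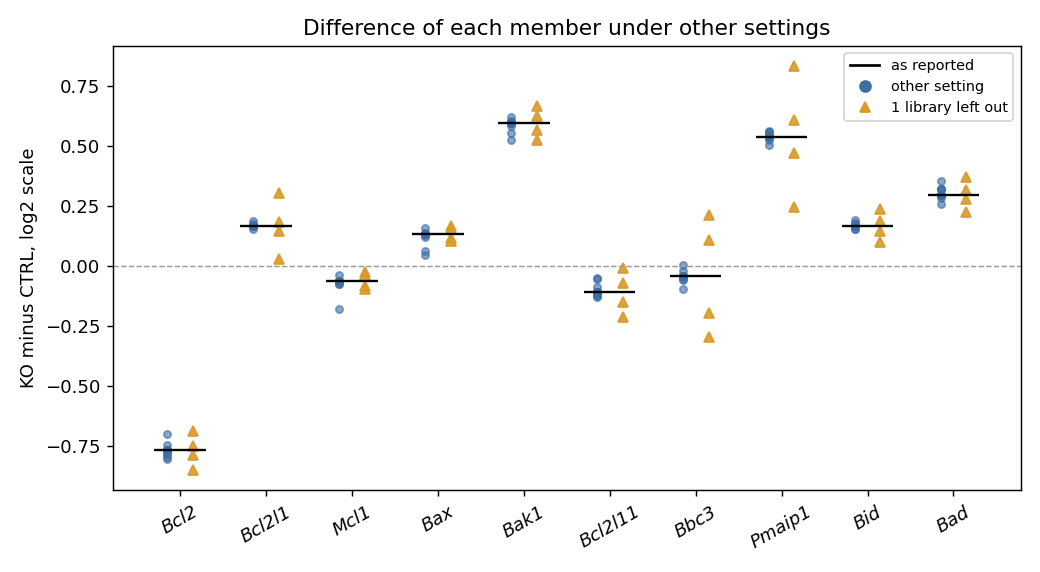
KO minus CTRL difference of each member on the log2 scale as reported (black bars), under 11 other settings (blue circles) and with 1 library left out (yellow triangles). Bcl2 lies between -0.85 and -0.69 and Bak1 between 0.53 and 0.67 with a library left out, and Pmaip1 between 0.25 and 0.83.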

How the data were processed

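RNA-seq was performed on poly(A)-selected RNA of about 1000000 sorted cells per library, sequenced as 150 bp read pairs. Per the labels, the authors' notes name FastQC, HISAT2 2.2.1, featureCounts 2.0.1, edgeR 3.34.0 and the mm10 build. The deposited values were FPKM made by the authors. The gene lengths used, the annotation version and the use of strand are not given in the sources used here. Control columns named WT with a number were read as CTRL with that number. Whole-number ratios between libraries gave the least reads behind each value for 19887 of 19888 genes above 0, with each recovered number within 0.01 of a whole number. A common factor of a gene's reads cannot be seen, so these are lower bounds.

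KO was compared with CTRL with limma 3.58.1 (R 4.3.3) on log2(FPKM + 1), lmFit and eBayes with a trend, two-sided, over the 11399 genes whose FPKM reached 1 in 2 or more libraries. Differences on this scale understate changes of weakly expressed genes. The study's count test was not used, since the values are FPKM. Limma-voom on the recovered reads was an alternative. The code was tested on simulated data. Python 3.11.15, numpy 2.4.6 and pandas 2.3.3 were also used.

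The members and lists were chosen with earlier results of these data known. Named were all members, Setd2, every list gene past the threshold (at most 3 in each direction of a list with more than 6) and the most abundant gene of each list. A list gene is not reported here and remains in the counts and the adjustment of p. Cdkn1a and some ratios were added after their values were seen. Positions and coding stretches came from GENCODE vM21 (GRCm38) and promoters from RefSeq (GRCm38.p6), where 9 members matched. Sums of the marker lists ran from 1107 to 1214 FPKM for Treg cells, 1544 to 1688 for T cells, 8.49 to 11.4 for CD8 T cells, nearly all of it Cd8b1, and 4.27 to 5.34 for NK cells. The other marker lists are given with the results.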

Additional observations from a re-analysis of the deposited data

How the results depend on the processing

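Over all genes, 581 were higher and 530 lower in KO. These numbers were 0 and 0 without the filter on low values, 315 and 364 without a variance trend, 866 and 1023 with limma-voom on recovered reads, 369 and 291 with the exon length trend removed, and 0 to 1 in each direction with a library left out. Among the members, Bak1 and Bcl2 were each called under every setting but the absence of a filter (0 higher and 0 lower, with Bcl2 at -0.77 and Bak1 at 0.60) and the removal of a library (0 and 0, with Bcl2 between -0.85 and -0.69 and Bak1 between 0.53 and 0.67). A lone library of a group was then assumed to vary like the others. Bbc3 had a difference of 0.0029 with quantile normalization, and of -0.30 to 0.21 with a library left out. The log2 ratio of pro-survival to BH3-only FPKM was -0.49 with quantile normalization, compared with -0.37, and the cause was not tested. The lists around the family had 5 genes higher and 5 lower, which became 0 and 0 without a filter or with a library left out, 9 higher with median-ratio scaling, 3 and 3 without a variance trend, 10 higher with limma-voom, and 3 lower with the exon length trend removed. Same-numbered libraries share only a number in the labels, and their deviations from the group means correlated at 0.342 (Pearson) and 0.0553 (Spearman) across 11399 genes. With the replicate block 968 genes were higher and 805 lower, with 2 members higher, since Pmaip1 (0.54) had an adjusted p of 0.0314 in limma, and with 10 list genes higher. For the other named genes, 195 comparisons kept their side of the threshold, 57 lost it, 13 gained it and 4 changed sign. These 4 were Bcl2a1b at -0.041 with quantile normalization, at -0.047 with the exon length trend removed and between -0.046 and 0.12 with a library left out (negative without CTRL 2), and Trp53 between -0.18 and 0.015 with a library left out (positive without KO 1). Where no gene or 1 was called, 1292 to 2251 genes in each direction had an unadjusted p under 0.05 in limma. Spread between pools and counting error were not separated.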
